A study of Mus musculus with 8 samples.

Results

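The left ventricle of mice that lack TIGAR was compared with the left ventricle of WT mice, as the library of the TIGAR knockout left ventricle (TKO-LV) over the library of the WT left ventricle (WT-LV). These are 2 of the 8 RNA sequencing libraries of the study, and the comparison covered the 12891 of 16994 genes of the table whose mean level over all 8 libraries was at least 1 CPM, a count scaled to the size of its library. The other 6 libraries came from the infarct, border, and remote zones of WT and TKO hearts after ligation of the left anterior descending coronary artery, with 1 library per genotype and zone. The mice were male, and the TKO mice lack TIGAR in the whole body, so the comparison does not separate heart muscle from other organs. Mice of the 3 zones were operated on at 16 weeks of age and their tissue was taken 4 weeks later. For its infarct zone data the study states that each library held the pooled RNA of 3 mice. Whether the left ventricle libraries were pooled likewise, the age of their mice, whether these were sham operated, the hour of collection, and the feeding state are not given in the sources used here. With 1 library a side, no difference between these 2 libraries has a replicate check, and the 95% intervals given with the ratios cover counting error only.

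TIGAR is a phosphatase that lowers fructose-2,6-bisphosphate, the activator of phosphofructokinase-1, and so restrains glycolysis and directs glucose toward the pentose phosphate pathway, which makes NADPH. The adult ventricle burns mostly fatty acids, and it tunes its fuel use through the circadian clock, through glucocorticoid and PPARα signaling, and through pyruvate dehydrogenase kinases. In the clock, CLOCK or NPAS2 pairs with BMAL1 (encoded by *Arntl*) on E-boxes and drives the *Per* and *Cry* genes, whose proteins block that pair. BMAL1 also drives *Dbp*, *Tef*, and *Hlf*, which act on D-boxes, and the REV-ERB receptors (*Nr1d1*, *Nr1d2*), which repress *Arntl* and *Npas2*. Glucocorticoids bind the receptor NR3C1, which acts on glucocorticoid response elements of genes such as *Per1*, *Fkbp5*, and *Tsc22d3*.

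The targeted gene was low in every TKO library. *Tigar* (ENSMUSG00000038028) lies on chromosome 6 of GRCm38 from 127085116 to 127109557 on the minus strand. It had 1965 counts in WT-LV and 51 in TKO-LV, which is 71.7 and 1.97 CPM. In the infarct, border, and remote zones it was at 25.2, 71.9, and 65.6 CPM in WT and at 2.43, 2.66, and 2.89 CPM in TKO. Each TKO library was below every WT library, and the left ventricle ratio of TKO over WT was 0.0275 (95% counting interval, 0.0204 to 0.0363). *Nnt*, the mitochondrial transhydrogenase that makes NADPH and that is deleted in some C57BL/6 substrains, had 11408 counts in WT-LV and 9657 in TKO-LV, a ratio of 0.896 (0.872 to 0.920), so transcripts of it were present in both.

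The left ventricle libraries held 31571170 (WT) and 29894294 (TKO) counts, within the range of all 8 libraries (27429240 to 33799249), and the 13 protein-coding genes of mitochondrial DNA took 37.6% and 36.6% of them. A total of 3 counts, taken as the floor, equals 0.109 CPM in WT-LV and 0.116 CPM in TKO-LV. Both libraries carried the markers of ventricular muscle. *Myl2*, the ventricular myosin light chain, had 193918 and 206371 counts, and the atrial genes *Myl7* and *Bmp10* had 152 and 6 counts in each of the 2 libraries. In the remote zone *Bmp10* reached 2134 counts in WT and 305 in TKO. Of the 8 atrial genes tested, 6 were higher in TKO-LV and 2 lower, and the median ratio was 1.17. Only 1 passed 2-fold, and it was lower (0.0437), as were 3.37% of all tested genes. The counting interval lay above 1 for 4 of the 8, as for 26.3% of all tested genes. The summed level of the atrial list was 224 CPM in WT-LV, 333 CPM in TKO-LV, and 546 to 3361 CPM in the zones. The 10 cardiomyocyte markers had a median ratio of 1.14.

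Most genes were close to the same level in both libraries. Over the 12891 genes the median ratio of TKO over WT was 1.01. After a prior count of 2, 245 genes were at least 2-fold higher in TKO-LV (1.90% of those tested) and 434 at least 2-fold lower (3.37%), 679 in all (5.27%). For scale, between genotypes the same rule called 3.77% of genes in infarct, 4.21% in border, and 3.37% in remote tissue. Between the border and remote zones of one genotype it called 3.19% in WT and 2.44% in TKO. A count of members past 2-fold in the lists that follow is read against 1.90% for higher and 3.37% for lower genes.

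Among the gene lists with the lowest medians were immunoglobulin, lymphocyte, MHC class II, glucocorticoid-responsive, epicardial, adipocyte, and clock genes. Nuclear genes of the respiratory chain and of both ribosomes lay slightly higher as groups. The plot of list medians sets these beside the same medians in the 3 zones, where the glucocorticoid and clock lists had medians between 1.01 and 1.21.

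**Figure D1:**
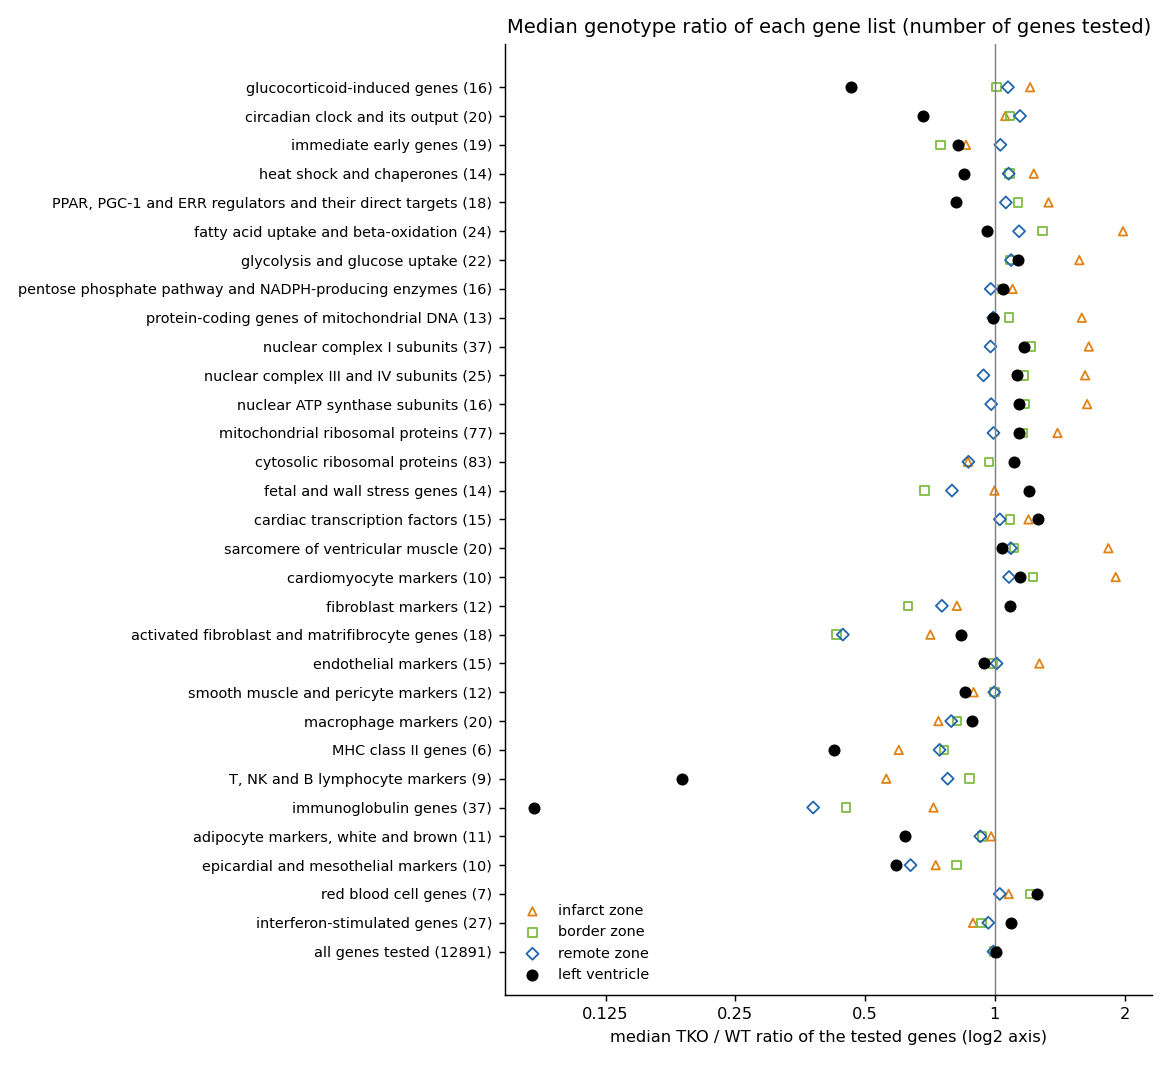
Median ratio of TKO over WT (log2 axis) of the tested genes of each list, with the number tested in parentheses. Black circles are the left ventricle; orange triangles, green squares, and blue diamonds are the infarct, border, and remote zones. In the left ventricle the glucocorticoid list sits at 0.463, the clock list at 0.682, and all genes at 1.01.

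Of 20 clock genes tested, 13 were lower and 7 higher in TKO-LV, 4 at least 2-fold lower and 2 at least 2-fold higher, and their median ratio was 0.682. The period genes, whose proteins form the repressing arm of the clock, were the lowest. *Per2* (chromosome 1, 91415982 to 91459324, minus strand) was at 30.9 CPM in WT-LV and 6.33 CPM in TKO-LV. In the infarct, border, and remote zones it was at 41.6, 36.3, and 32.9 CPM in WT and at 49.9, 45.0, and 43.5 CPM in TKO. TKO-LV was thus the only library of the 8 in which *Per2* was below 30 CPM, and the ratio there was 0.205 (0.172 to 0.243).

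*Per1* went from 68.5 CPM in WT-LV to 24.6 in TKO-LV (0.359, 0.328 to 0.393) and lay between 70.1 and 107 CPM in the zones. *Per3* went from 39.5 to 15 CPM (0.380, 0.338 to 0.427), against 43.0 to 65.1 CPM in the zones. *Ciart*, a repressor of the CLOCK-BMAL1 pair, went from 12.5 to 4.94 CPM (0.395, 0.320 to 0.485), against 12.1 to 17 CPM. For these 3 genes, as for *Per2*, WT-LV lay in or near the range of the zones and TKO-LV below all 7 other libraries. The clock output factors were lower by less: *Tef* had a ratio of 0.502, *Dbp* 0.537, and *Hlf* 0.562, and the deubiquitinase gene *Usp2* had 0.544. *Cry1* had a ratio of 0.655 and *Nr1d2* one of 0.597.

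The activating arm ran the other way. *Arntl*, which encodes BMAL1, had 82 counts in WT-LV and 254 in TKO-LV, and its levels were 2.99 and 9.81 CPM. In the 6 zone libraries it lay between 0.756 and 3.31 CPM, so TKO-LV was above all others, and the ratio was 3.28 (2.55 to 4.26). *Npas2*, which can take the place of CLOCK, was at 1.93 CPM in WT-LV, 6.53 in TKO-LV, and between 1.31 and 2.23 in the zones, with a ratio of 3.37 (2.46 to 4.69). *Clock* itself had a ratio of 1.15. *Nr1d1*, which encodes REV-ERBα, was higher in TKO-LV (1.55, 1.46 to 1.64), in contrast to its paralog *Nr1d2*.

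Of 16 glucocorticoid-responsive genes, 15 were lower in TKO-LV, each with a counting interval below 1 (24.5% of all tested genes had one), and 9 were at least 2-fold lower (median ratio, 0.463). *Fkbp5*, a cochaperone that dampens the glucocorticoid receptor, was at 48.9 CPM in WT-LV and 8.96 CPM in TKO-LV, and between 29.7 and 90.9 CPM in the zones. Its ratio was 0.183 (0.159 to 0.211). *Zbtb16*, a zinc finger transcription factor, went from 64.2 to 10.9 CPM (0.170, 0.150 to 0.193), against 21.7 to 53.8 CPM in the zones. TKO-LV was the lowest of the 8 libraries for both, and for 11 of the 16 genes, against 21.3% of all tested genes.

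*Ddit4*, an inhibitor of mTORC1, went from 103 to 30.3 CPM (0.294), and *Tsc22d3*, which encodes the anti-inflammatory protein GILZ, from 120 to 49.1 CPM (0.408). The metallothionein genes *Mt2* and *Mt1*, which bind zinc, had ratios of 0.25 and 0.462, and *Cebpd*, a transcription factor, 0.465. *Pdk4*, the kinase that turns off pyruvate dehydrogenase and spares glucose, was at 1312 CPM in WT-LV and 420 CPM in TKO-LV, a ratio of 0.320 (0.313 to 0.327). Here both left ventricle libraries lay above the zones, which ranged from 60.7 to 162 CPM. *Dusp1* (0.893) and *Lcn2* (1.08, 0.708 to 1.65) differed least. Outside the list, *Depp1* had a ratio of 0.201 and *Fam107a* one of 0.211. These 2 were picked because their left ventricle difference departed lower from the zones, a choice that fixes their place among the libraries.

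**Figure D2:**
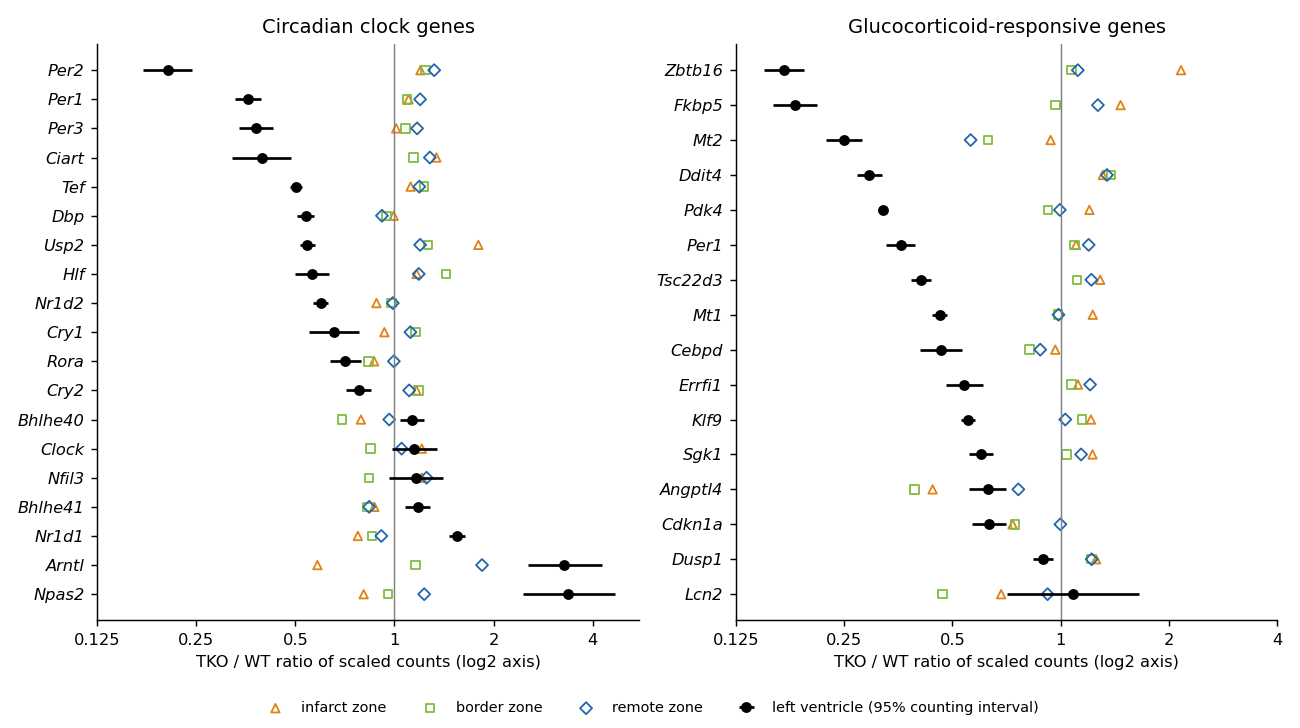
Ratio of TKO over WT (log2 axis) of all but 1 of the 20 clock genes tested (left panel) and of the glucocorticoid-responsive genes (right panel). Black circles with bars are the left ventricle with its 95% counting interval; open symbols are the infarct (triangle), border (square), and remote (diamond) zones. *Per2* sits at 0.205 and *Npas2* at 3.37 in the left ventricle, and the zones lie between 0.583 (*Arntl*, infarct) and 1.85 (*Arntl*, remote) for the clock genes drawn.

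The promoters of 5 of these genes are shown because they hold matches to the elements named above. Each is the 250 bases before a transcription start of the gene, read 5′ to 3′ on the gene's strand from RefSeq (GRCm38.p6), with matches in capitals. The E-box was searched as CACGTG, the D-box as TTANGTAA, and the glucocorticoid response element as GNACA and TGTNC with 3 bases of any kind between them, all on both strands. Per1 (chr11:69098699-69098948, plus strand, at one of its annotated starts, which lies inside the gene's full span) has an E-box 166 bases before the start. Ciart (chr3:95882229-95882478, minus strand) has 3 E-boxes, at 116, 58, and 44 bases before it, and Per3 (chr4:151044666-151044915, minus strand) has 2 D-boxes, at 205 and 158. Fam107a (chr14:8309780-8310029, minus strand, at one of its annotated starts) and Mt1 (chr8:94178839-94179088, plus strand) have a response element at 118 and 94 bases.
Per1: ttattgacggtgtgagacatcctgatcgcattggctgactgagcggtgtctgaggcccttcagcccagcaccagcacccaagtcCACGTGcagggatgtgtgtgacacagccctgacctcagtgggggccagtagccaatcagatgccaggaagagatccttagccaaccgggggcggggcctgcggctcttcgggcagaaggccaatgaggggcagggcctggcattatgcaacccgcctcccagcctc
Ciart: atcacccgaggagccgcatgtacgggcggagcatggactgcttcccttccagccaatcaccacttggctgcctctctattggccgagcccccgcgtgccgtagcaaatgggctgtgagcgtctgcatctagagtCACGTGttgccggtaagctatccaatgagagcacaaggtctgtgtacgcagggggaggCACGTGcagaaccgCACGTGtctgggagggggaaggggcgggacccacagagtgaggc
Per3: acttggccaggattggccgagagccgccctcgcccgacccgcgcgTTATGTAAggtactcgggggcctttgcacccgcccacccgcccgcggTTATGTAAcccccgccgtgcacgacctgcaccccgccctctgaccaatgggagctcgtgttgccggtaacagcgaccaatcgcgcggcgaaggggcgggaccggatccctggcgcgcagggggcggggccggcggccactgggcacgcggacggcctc
Fam107a: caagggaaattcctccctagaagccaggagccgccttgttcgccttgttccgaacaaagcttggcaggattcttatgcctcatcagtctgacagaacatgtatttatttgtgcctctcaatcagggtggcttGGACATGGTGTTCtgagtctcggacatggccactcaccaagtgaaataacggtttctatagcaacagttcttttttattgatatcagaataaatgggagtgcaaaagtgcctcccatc
Mt1: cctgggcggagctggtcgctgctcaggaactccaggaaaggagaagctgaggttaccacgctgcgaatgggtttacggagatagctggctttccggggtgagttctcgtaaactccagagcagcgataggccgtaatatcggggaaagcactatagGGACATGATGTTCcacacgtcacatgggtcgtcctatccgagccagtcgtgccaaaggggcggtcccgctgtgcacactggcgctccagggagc
Of 27025 mouse genes with a promoter in this table, 6.86% had an E-box in such a window, 2.44% a D-box, and 0.44% a glucocorticoid response element. Of the 17 clock genes in the table, 5 had an E-box (*Cry1*, *Per1*, *Tef*, *Ciart*, and *Bhlhe41*) and 1 a D-box (*Per3*). Of the 13 glucocorticoid-responsive genes in it, 4 had an E-box (*Fkbp5*, *Per1*, *Sgk1*, and *Dusp1*) and 2 a response element (*Sgk1* and *Mt1*). Of all these genes with a match, *Bhlhe41* was higher in TKO-LV (1.18) and the others were lower. In the whole lists, 13 of 20 clock genes and 15 of 16 glucocorticoid-responsive genes were lower. A match describes the letters of the window and is not a measured binding site.

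Immediate early genes, which neurohormonal and mechanical stimuli switch on within minutes, were split. Of 19 tested, 14 were lower in TKO-LV and 6 at least 2-fold lower, with a median ratio of 0.823. The orphan nuclear receptor gene *Nr4a3* had 312 counts in WT-LV and 46 in TKO-LV (0.156, 0.112 to 0.213), and *Nr4a1* had 346 and 117 (0.358). *Zfp36*, which destabilizes cytokine mRNA, had a ratio of 0.443, and *Maff* and *Myc* each had 0.449. *Fosb* had 15 counts in WT-LV and none in TKO-LV. The most studied members did not share this: *Fos* (1.10, 0.737 to 1.64), *Egr1* (1.09, 0.940 to 1.27), and *Jun* (1.0, 0.929 to 1.08) had intervals that include 1, and *Ier2* had a ratio of 1.23. For *Maff* and *Nr4a3*, the ratios in all 3 zones were also below 1.

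Among 14 heat shock and chaperone genes the median ratio was 0.848, and 10 were lower. *Hspa8*, the constitutive HSC70 chaperone, had 50256 counts in WT-LV and 21298 in TKO-LV (0.448, 0.441 to 0.456), whereas its zone ratios lay between 1.06 and 1.39. *Hsph1*, its nucleotide exchange factor, had a ratio of 0.381. The stress-inducible *Hspa1a* (0.557) and *Hspa1b* (1.38) went opposite ways, and as near-identical copies their counts can be split between them by the quantification. In the integrated stress response list, 5 of 16 genes were higher and 11 lower, with *Chac1*, a glutathione-degrading enzyme, at 0.286 and *Phgdh*, the entry enzyme of serine synthesis, at 0.451, and the list median was 0.962. Of 26 antioxidant genes, 12 were higher and 14 lower (median ratio, 0.974), and only *Mt1* and *Mt2* passed 2-fold. The Nrf2 targets *Hmox1* and *Gclm* had ratios of 0.566 and 0.592, and *Gsr* had 1.27.

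In the pathway TIGAR acts on, 7 of the 8 tested genes of fructose bisphosphate control were lower, *Tigar* among them, with a median ratio of 0.700. *Pfkfb3*, whose kinase activity makes fructose-2,6-bisphosphate, was at 14.4 CPM in WT-LV and 6.53 CPM in TKO-LV and between 12 and 30.3 CPM in the zones (0.454, 0.377 to 0.545). *Pfkfb1* (0.592), *Pfkfb2*, the main cardiac isoform (0.687), and *Fbp2*, muscle fructose bisphosphatase (0.712), were lower by less. The muscle phosphofructokinase *Pfkm* had 24924 and 23480 counts (0.997, 0.979 to 1.01). Glycolysis and glucose uptake genes were mostly slightly higher: 18 of 22 were higher, the median ratio was 1.13, and *Tpi1* had 1.27. *Pdk4* was the 1 member past 2-fold. Of 16 pentose phosphate and NADPH-producing genes, 9 were higher and none passed 2-fold (median ratio, 1.05). *G6pdx*, the entry enzyme, had a ratio of 0.848 (0.711 to 1.01).

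Fat oxidation genes were near the median of all genes, but several PPARα targets were lower. Of 24 fatty acid uptake and oxidation genes, 11 were higher and 13 lower (median ratio, 0.961). Of 18 PPAR, PGC-1, and ERR regulators and direct targets, 13 were lower and 4 at least 2-fold lower (median ratio, 0.815). *Ucp3*, a mitochondrial carrier induced by fatty acids, was at 171 CPM in WT-LV and 73.6 in TKO-LV (0.430, 0.407 to 0.453), with both above the zones (6.22 to 39.0 CPM). *Pdk4* and *Acot1*, an acyl-CoA thioesterase (0.459), were also among the 4. *Ppara* itself had a ratio of 0.646, *Ppargc1a* (PGC-1α) 0.978 (0.926 to 1.03), and *Ppargc1b* 1.5. Of 6 genes of ketone body use and transport, 4 were higher and 2 lower, 1 of the latter at least 2-fold (median ratio, 1.03). The highest was *Bdh1*, the ketone-oxidizing enzyme (1.83, 1.74 to 1.92), and the lowest had a ratio of 0.446.

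Nuclear genes of the respiratory chain and of the mitochondrial ribosome were mostly slightly higher in TKO-LV, while those of the tricarboxylic acid cycle and of fat oxidation ran both ways. All 37 tested nuclear complex I genes were higher in TKO-LV, 34 with intervals above 1 (26.3% of all tested genes had one), at a median ratio of 1.17, and TKO-LV was the highest of the 8 libraries for 36 of them, against 23.0% of all tested genes. All 25 complex III and IV genes and 15 of 16 ATP synthase genes were higher as well (median ratios, 1.12 and 1.14). *Ndufs8*, a complex I subunit, went from 34.7 to 48.8 CPM (1.41). *Ndufa9* was the only complex I gene past 2-fold, with 36 counts in WT-LV and 458 in TKO-LV (13.5, 9.58 to 19.5). It was listed at 0 counts in the WT infarct and border zones. Of the mitochondrial ribosomal proteins 72 of 77 were higher (1.14), and of the cytosolic ones 76 of 83 (1.11). The cytosolic list holds the processed pseudogene *Rps3a2*, which was among the 76. Ribosomal proteins and the respiratory chain thus lay at similar distances above the median of all genes. The 13 genes of mitochondrial DNA had a median of 0.993 and ran from 0.852 for *ND1* to 1.24 for *COX2*. Of 17 tricarboxylic acid cycle genes 10 were higher and 7 lower (1.05).

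Genes of wall stress and the fetal program were higher in TKO-LV than in WT-LV. *Nppb*, which encodes the natriuretic peptide BNP, was at 103 CPM in WT-LV and 398 CPM in TKO-LV, a ratio of 3.85 (3.69 to 4.01). In the infarct, border, and remote zones it was at 332, 515, and 338 CPM in WT and at 379, 311, and 237 CPM in TKO. WT-LV was therefore the lowest of the 8 libraries, and TKO-LV lay within the range of the post-infarction zones. *Acta1*, skeletal α-actin, followed the same order, at 131 CPM in WT-LV, 470 in TKO-LV, and 168 to 591 in the zones (3.60, 3.47 to 3.74). *Ankrd1*, a stretch-responsive titin-binding protein, had a ratio of 2.14 (1.96 to 2.34), but both left ventricle libraries lay below all zones.

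Of the 14 genes of that list, 11 were higher, 3 of them at least 2-fold (median ratio, 1.20). *Nppa* (ANP) went from 173 to 280 CPM (1.62), against 468 to 2987 CPM in the zones. *Myh7*, the slow β-myosin of the fetal ventricle, had a ratio of 1.17, and the adult α-myosin gene *Myh6* had 244473 counts in WT-LV and 153941 in TKO-LV (0.666, 0.662 to 0.671). *Xirp2* was lower as well (0.656). In the border and remote zones the ratios of *Nppb*, *Acta1*, *Ankrd1*, *Nppa*, and *Myh7* were below 1, from 0.249 to 0.866. Sarcomere genes were close to equal: 11 of 20 were higher and none passed 2-fold (1.04). Of 8 cardiac genes that the study plots, 5 were higher (1.10). Creatine kinase and creatine transport genes had a median of 1.29. Cardiac transcription factors had a median of 1.26, with *Gata4* at 1.46 and *Irx5* at 1.82.

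Receptor and channel genes differed in single members. The α1-adrenergic receptor gene *Adra1a* was lower (0.520, 0.451 to 0.599) while *Adra1b* (1.58) and the β1 receptor gene *Adrb1* (1.57) were higher. *Kcna5*, a potassium channel of repolarization, had 1045 counts in WT-LV and 440 in TKO-LV (0.446, 0.398 to 0.499). Calcium cycling genes had a median of 1.12, with *Atp2a2* (SERCA2) at 0.883 and *Ryr2*, the release channel, at 0.759. *Tfrc*, the transferrin receptor that imports iron, went from 15.4 CPM to 48.2 CPM (3.14, 2.81 to 3.51), above the 20.6 to 37.9 CPM of the zones. It is outside the lists and was picked because its left ventricle difference departed higher from the zones, a choice that bears on its place among the libraries. *Hif1a* had a ratio of 1.62, though the 13 tested genes of the hypoxia list had a median of 0.969.

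Matrix genes were near the median of all genes. Of 35 collagen genes 19 were higher and 16 lower (1.04). *Col5a3* was at 15.4 CPM in WT-LV and 34.2 CPM in TKO-LV (2.23, 1.98 to 2.51). *Lox*, the collagen cross-linking oxidase, was lower (0.349), as in all 3 zones (0.418 to 0.606). The metalloprotease inhibitors *Timp4* (0.355) and *Timp3* (0.457) were at least 2-fold lower. *Postn* (0.808) and *Lgals3* (0.981, 0.781 to 1.23), markers of fibrosis, had left ventricle counts of 1321 and 1009, and of 164 and 152. Fibroblast markers had a median of 1.08 and activated fibroblast genes one of 0.836.

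Several fat cell genes were high in WT-LV. *Adipoq*, which encodes adiponectin, was at 13.5 CPM in WT-LV and 0.232 CPM in TKO-LV (370 and 6 counts, a ratio of 0.0172, 0.00626 to 0.0377). In the infarct, border, and remote zones it was at 2.58, 2.56, and 0.920 CPM in WT and at 1.57, 1.21, and 0.565 CPM in TKO. WT-LV was the highest and TKO-LV the lowest of the 8. *Cfd* (adipsin, 0.0157), *Car3* (0.0193), and *Cidec*, a lipid droplet protein (0.0164), shared that order.

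*Pck1*, which serves glycerol synthesis in fat cells, had 847 counts in WT-LV and 5 in TKO-LV (0.00625), and *Cyp2e1* had 720 and 19 (0.0279). Neither is in the adipocyte list, and both are named for their rank among all genes. Of the 11 tested genes of the adipocyte list, 10 were lower and 5 at least 2-fold lower, and WT-LV was the highest of the 8 libraries for 8, as for 1681 of the 12891 tested genes. The summed level of the list was 931 CPM in WT-LV, 601 in TKO-LV, and 354 to 745 in the zones. *Plin1*, *Lep*, and *Ucp1* did not reach a mean of 1 CPM and were at 0 in TKO-LV. *Fabp4*, which capillary endothelium also expresses, had a ratio of 0.726. In such bulk tissue, fewer cells of a type and less RNA per cell cannot be told apart. The part of attached fat tissue in these values was not tested.

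Immunoglobulin and B cell genes were lower in TKO-LV. *Ighm*, the IgM heavy chain, was at 98.7 CPM in WT-LV and 8.11 in TKO-LV (0.0821, 0.0710 to 0.0945), against 10.2 to 205 CPM in the zones. *Igkc*, the κ light chain, was at 63.7 and 5.44 CPM (0.0855), against 10.8 to 457 CPM. TKO-LV was the lowest library for both, and WT-LV was within the range of the zones. Of 37 tested immunoglobulin genes, 35 were lower and 30 at least 2-fold lower, with a median ratio of 0.0855 (0.180 with zero counts set to the floor). Their summed level was 268 CPM in WT-LV, 28.8 CPM in TKO-LV, and 54.2 to 1951 CPM in the zones. All 9 lymphocyte genes were lower, 7 at least 2-fold (0.188), among them the B cell genes *Cd79a* (0.188), *Cd79b* (0.140), and *Ms4a1* (0.130) and the T cell gene *Cd3g* (26 and 4 counts). TKO-LV was the lowest library for each of the 9. The median ratios were below 1 in the infarct, border, and remote zones too. They were 0.721, 0.452, and 0.379 for immunoglobulin genes and 0.560, 0.874, and 0.777 for lymphocyte genes. *Ighm* and *Cd74* stand in this list and in the immunoglobulin and MHC class II lists too.

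All 6 MHC class II genes were lower, 5 at least 2-fold (0.424), with *Cd74* at 0.422 and *H2-Aa* at 0.426. Their summed level was 247 CPM in WT-LV, 107 CPM in TKO-LV, and 163 to 968 CPM in the zones. General macrophage markers differed less: 15 of 20 were lower (0.886), with *Csf1r* at 0.803, *C1qa* at 0.892, and *Cd68* at 1.05 (0.865 to 1.27). The 2 past 2-fold were *Cd163* (0.427) and *Lyve1* (0.406), which mark resident macrophages and, for *Lyve1*, lymphatic vessels. *Cd163* was higher in TKO in the infarct, border, and remote zones, with ratios of 1.44, 1.51, and 1.09. Of 16 complement and acute phase genes, 15 were lower (0.736), and the list shares *Cfd* and *Lcn2* with lists given above. *Hp*, haptoglobin, had 480 and 24 counts (0.0529) and *C4b* 779 and 297 (0.403). In the infarct, border, and remote zones the MHC class II medians were 0.599, 0.761, and 0.745. Macrophage medians there were 0.740, 0.818, and 0.793, and complement and acute phase medians 0.710, 0.643, and 0.763. Lower medians of these lists were thus not particular to the left ventricle. MHC class I genes (1.05) and interferon-stimulated genes (1.09) were near the median of all genes. Endothelial markers had a median of 0.945, smooth muscle and pericyte markers 0.851, and red cell genes, which reflect blood left in the tissue, 1.25.

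**Figure D3:**
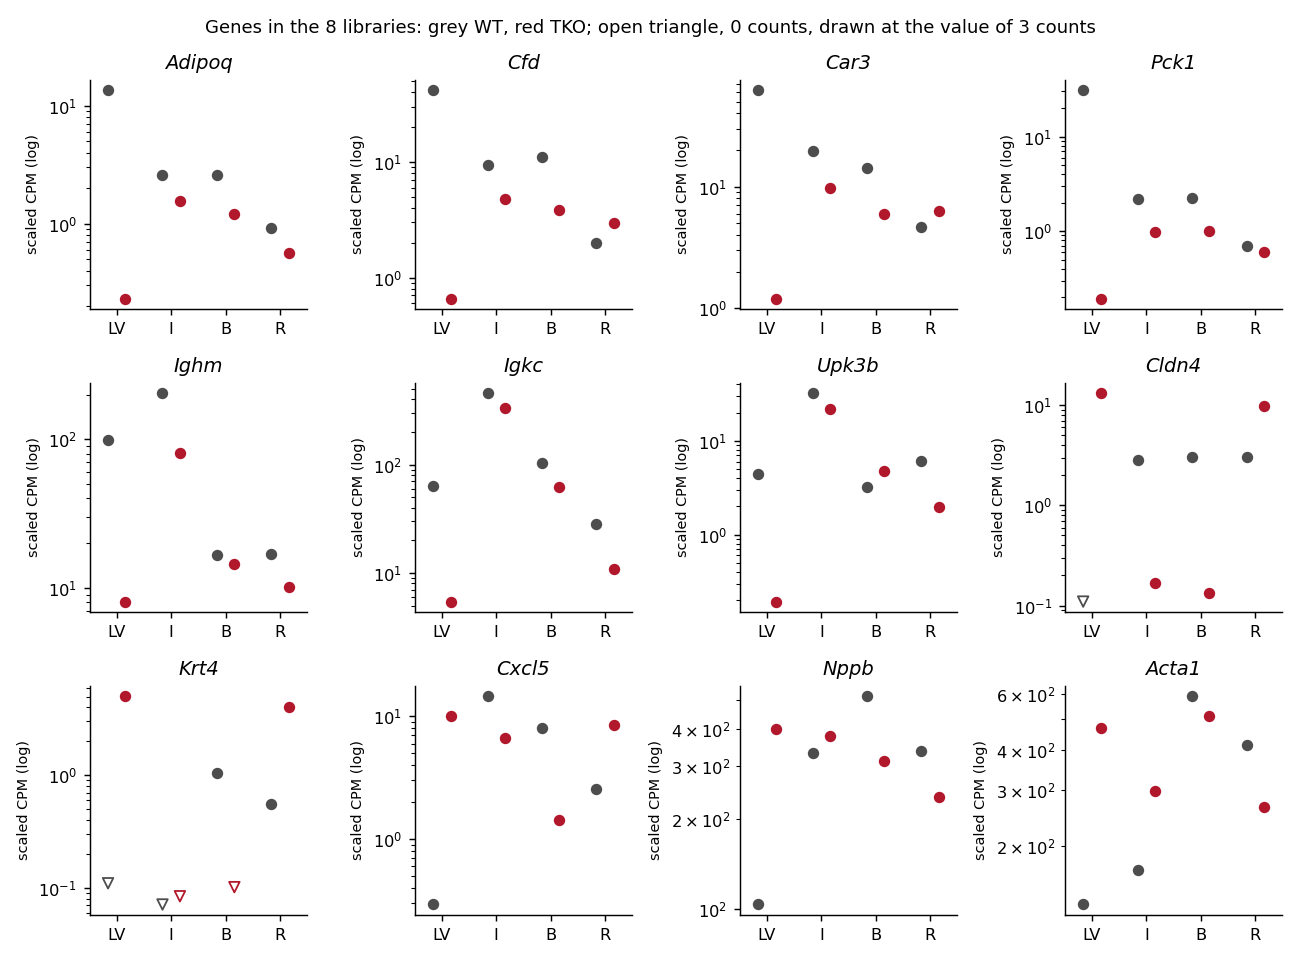
Level of 12 genes in the 8 libraries (TMM-scaled CPM, log axis; LV, left ventricle; I, B, and R, infarct, border, and remote zones). Grey points are WT and red points TKO, 1 library each; open triangles are libraries with 0 counts, drawn at the value of 3 counts. *Adipoq* is highest in WT-LV (13.5 CPM) and lowest in TKO-LV (0.232 CPM), whereas *Cldn4* is high in TKO-LV (13.2 CPM) and in the TKO remote zone (9.70 CPM).

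Surface epithelium genes were mixed. The mesothelial gene *Upk3b* had 121 counts in WT-LV and 5 in TKO-LV (0.0437), and the epicardial factor *Wt1* had 156 and 84 (0.570). The keratin genes *Krt18* (2.35) and *Krt8* (2.98) were higher in TKO-LV. Of 10 epicardial and mesothelial genes, 4 were higher and 6 lower, 2 and 4 of them at least 2-fold (median ratio, 0.589), and their sum was 26.2 CPM in WT-LV, 20.7 CPM in TKO-LV, and 23.5 to 126 CPM in the zones. *Cldn4*, *Krt4*, and *Cxcl5* were among the genes ranked highest in TKO-LV by their counting interval. *Cldn4*, a tight junction protein, had 0 counts in WT-LV and 342 in TKO-LV. This is 121-fold higher against a floor of 3 counts, with a counting interval that starts at 97.6-fold. In the infarct, border, and remote zones it had 119, 94, and 92 counts in WT and 6, 4, and 292 in TKO. *Krt4* had 0 and 131 counts (46.2-fold higher against the floor, with a counting interval that starts at 37.1-fold). It reached the minimum mean of 1 CPM only through TKO-LV and so had to differ. The chemokine gene *Cxcl5* had 8 and 262 counts (34.7, 17.3 to 81.1). *Krt4* also had 121 counts in the TKO remote zone and at most 32 in the other zone libraries. *Cxcl5* had 254 counts there, but 620 and 247 in the WT infarct and border zones and 239 in the TKO infarct zone, so TKO-LV lay within the range of the zones. Of 11 skeletal muscle genes 8 were lower, 3 at least 2-fold (median ratio, 0.582), at low counts such as 11 and 0 for *Mylpf*. The sum of that list was nearly all *Ckm*, which heart muscle shares (1234 and 1589 CPM).

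Genes were ranked by the smallest fold that the counting interval allows. The 15 highest and 15 lowest named genes included *Tigar*, *Pck1*, *Cyp2e1*, and fat cell and immunoglobulin genes given above. They also included *Cldn4*, *Krt4*, and *Cxcl5*, and genes present in one left ventricle library and near 0 in the other. In all, 32 genes had at most 3 counts in one of the 2 libraries and at least 50 in the other, 11 low in TKO-LV and 21 low in WT-LV. Of these, 17 were also at or under 3 counts in at least 1 zone library. *Adam9*, a metalloprotease, had 0 counts in WT-LV and 171 in TKO-LV, but also 0 in the WT border zone, the WT remote zone, and the TKO infarct zone. *Itsn2* had 0 and 84 counts, *Nt5dc2* 0 and 113, *Kifc2* 0 and 108, *Zfp267* 0 and 108, *Nrbp2* 0 and 97, and *Ogdhl* 0 and 57. *Krt4*, *Nt5dc2*, *Zfp267*, *Ogdhl*, and the pseudogene *Rps7-ps3* reached the minimum mean of 1 CPM only through TKO-LV and so had to differ. These genes are among the 21 low in WT-LV.

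In the other direction, *Itpr1*, an inositol trisphosphate receptor, had 354 counts in WT-LV and 0 in TKO-LV. This is 112-fold lower against the floor, with a counting interval that starts at 90.2-fold. The count of 354 also stood in the WT remote, TKO infarct, and TKO remote libraries. *Acap2* had 285 and 2 counts and *Rprd2* 145 and 1. *Prkaa1*, the AMPK α1 subunit, had 356 and 120 counts (0.357), and 7 of its 8 counts were whole multiples of 120. In all, 10 tested genes had the same count of at least 100 in 3 or more libraries, and 3 of these were among the 679. How the estimated counts of such genes came about was not tested.

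Copies of a gene can trade reads. *Rps7*, a ribosomal protein gene, had 5704 counts in WT-LV and 754 in TKO-LV (0.140), while its processed pseudogene *Rps7-ps3* had 0 and 2011. The sum of both was 5704 and 2765 (0.513, 0.490 to 0.537). *Rps3a2* had 5 and 2592 counts, but the sum of *Rps3a1*, *Rps3a2*, and *Rps3a3* was 11050 and 10218 (0.978, 0.952 to 1.01). The processed pseudogene *Atp6v0c-ps2* had 2 and 220 counts. Its counts in the infarct, border, and remote zones were 13, 9, and 5 in WT and 542, 403, and 453 in TKO. *Atp6v0c-ps2* was thus higher in TKO in every region, not in the left ventricle alone. Whether it trades reads with a copy was not tested. Of 186 pseudogenes, 40 passed 2-fold (21.5%), against 597 of 12596 protein-coding genes (4.74%).

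Around *Tigar* on chromosome 6, 83 genes within 5 Mb were tested, and the median ratio was 0.983. With *Tigar* included, 8 passed 2-fold (9.64%), and without it 7 of 82, against 5.27% of all tested genes. The 7 others were *Cd163*, *Kcna5*, *Ndufa9*, the G protein subunit gene *Gnb3* (2.22, 1.98 to 2.49), and the lectin-like receptor genes *Clec1b* (0.383), *Clec7a* (0.201), and *Klra9* (4.26). *Ccnd2*, cyclin D2, the neighbor of *Tigar*, was lower in all regions, at 0.630 (0.587 to 0.677) in the left ventricle and 0.480, 0.317, and 0.359 in the infarct, border, and remote zones. *Gnb3* and *Ndufa9* were higher in TKO in all 4 regions.

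On chromosome 17 the library labelled TKO-LV differed from the other TKO libraries. *Rnaset2b* (6970634 to 7011299), 1 of a pair of ribonuclease T2 copies, had 1792 counts in WT-LV and 1231 in TKO-LV. In the infarct, border, and remote zones it had 1255, 1452, and 1812 counts in WT and 27, 25, and 31 in TKO. Its level was 0.755 to 1.03 CPM in the TKO zones and 47.5 CPM in TKO-LV, where the ratio was 0.727 (0.675 to 0.782) against 0.0173 to 0.0255 in the zones.

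The adjacent gene *Tagap1* had a ratio of 0.845 in the left ventricle and between 0.274 and 0.384 in the zones. *Dynlt1b*, a dynein light chain copy 0.54 Mb away, was higher in TKO in all 4 regions, at 2.90 (2.60 to 3.25) in the left ventricle and 3.04 to 3.70 in the zones, and *Tmem181b-ps* at 2.24 and 3.61 to 4.45. The second copy *Rnaset2a* had ratios of 1.53 in the left ventricle and 1.26 to 1.95 in the zones. Of 28 genes tested within 3 Mb of *Rnaset2b*, *Dynlt1b* and *Tmem181b-ps* were the 2 past 2-fold in the left ventricle (7.14%, against 5.27% of all tested genes). These copies lie in near-identical stretches, so their counts can be split among them.

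**Figure D4:**
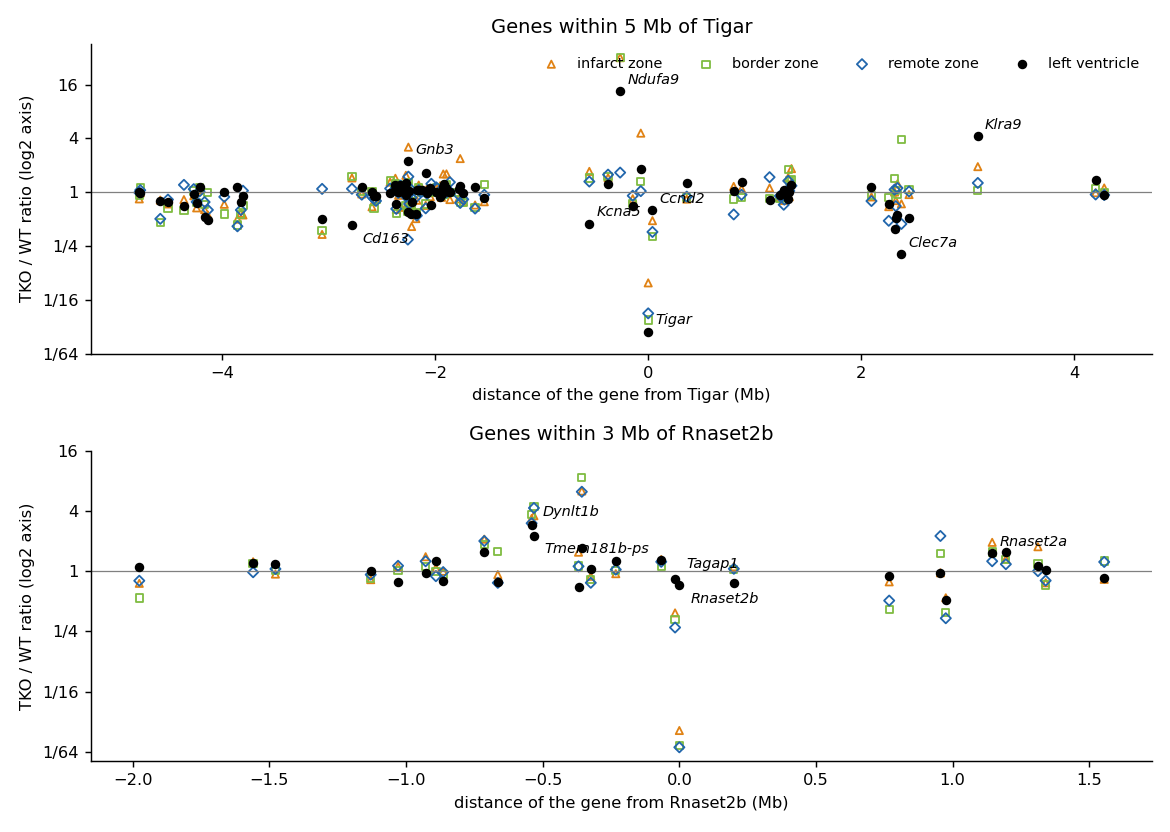
Ratio of TKO over WT (log2 axis) of tested genes by distance (Mb) from *Tigar* (top) and from *Rnaset2b* (bottom). Black circles are the left ventricle, and open triangles, squares, and diamonds the infarct, border, and remote zones; ratios beyond the axis are drawn at its limits. *Tigar* is at 0.0275 and *Ndufa9* at 13.5 in the left ventricle, and *Rnaset2b* is at 0.727 there but at 0.0255 or lower in the zones.

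The departure of the left ventricle's genotype difference from that of the 3 zones was the one difference that could be tested, with the zones standing in for replicates. The methods describe the 3 zones as parts of infarcted hearts, so the zones of a genotype can share animals and are not independent replicates. With the quasi-likelihood test of edgeR, adjusted by Benjamini-Hochberg, 33 of 12891 genes departed higher (0.256%) and 61 lower (0.473%), 94 in all (0.729%), and 2173 genes had an unadjusted p under 0.05. Of the 94, *Rps3a2* and *Capza1-ps1* reached the minimum of 1 CPM only through TKO-LV and so had to differ, which leaves 31 higher and 61 lower. Without the border zone libraries the same test called 0 genes, with 1428 at an unadjusted p under 0.05. The left ventricle itself entered with 1 library per genotype, so the test bears on these libraries and not on mice.

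Of the clock genes 4 departed lower: *Per2* by -2.61 on the log2 scale (SE 0.15, edgeR adjusted p = 0.014), *Per1* by -1.65, *Per3* by -1.51, and *Ciart* by -1.66. Of the glucocorticoid-responsive genes 5 did: *Fkbp5* (-2.74), *Ddit4* (-2.19), *Tsc22d3* (-1.56), *Errfi1*, a brake on EGF receptor signaling (-1.06), and *Per1*. *Fam107a* (-3.05, SE 0.19, edgeR adjusted p = 0.0145), *Depp1* (-2.89), and *Nr4a3* (-2.03) also departed lower, as did *Kcna5* (-1.73) and *Adra1a* (-1.41). Among fat cell genes *Adipoq* (-5.0) and *Cidec* (-5.74) were called, and *Cfd* was not (-5.21, edgeR adjusted p = 0.0741). *Pck1* (-6.38) and *Cyp2e1* (-5.26), which are outside the adipocyte list, were called too.

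*Rnaset2b* had the smallest adjusted p, with a departure of 5.20 (SE 0.21, edgeR adjusted p = 0.00612). *Tfrc* (1.75) and *Col5a3* (1.30) also departed higher. *Nppb* (2.29, SE 0.40, edgeR adjusted p = 0.0821) and *Acta1* (1.86, edgeR adjusted p = 0.206) did not pass, nor did *Arntl* (1.68, edgeR adjusted p = 0.283) or *Tigar* (-0.95, edgeR adjusted p = 0.444). Of the 94 called genes, 70 were also at least 2-fold different in the left ventricle.

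**Figure D5:**
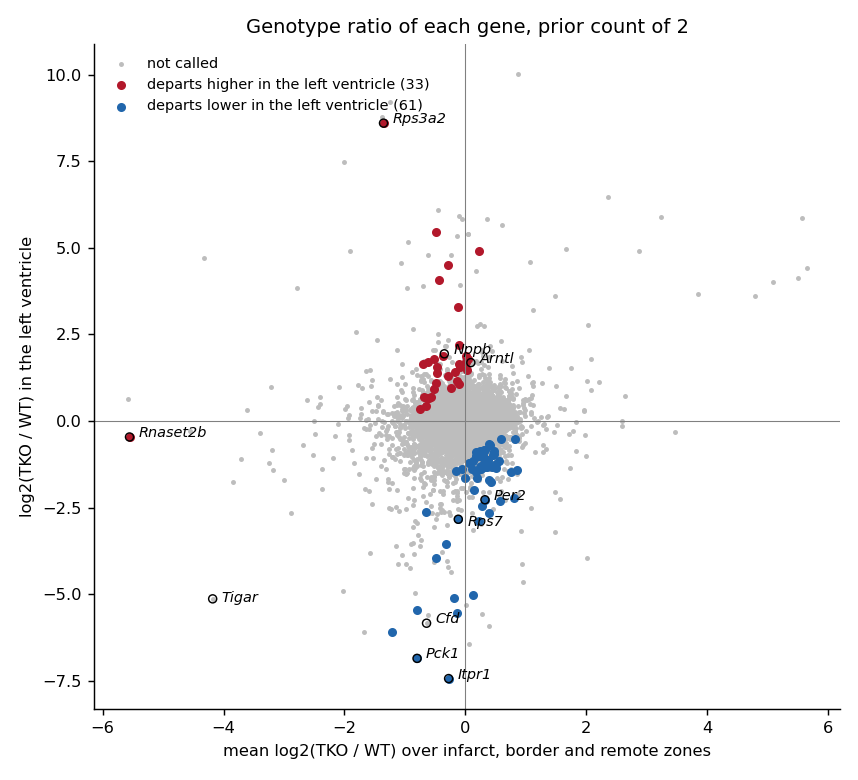
Each point is 1 of the tested genes: the log2 ratio of TKO over WT in the left ventricle (vertical axis) against the mean log2 ratio over the infarct, border, and remote zones (horizontal axis), after a prior count of 2. Red and blue points are the 33 and 61 genes that departed higher and lower. *Per2* and *Pck1* lie low near the vertical line, *Rnaset2b* far to the left near the horizontal line, and *Tigar* low on both axes.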

How the data were processed

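RNA of 8 mouse heart libraries was analysed, 1 per genotype (WT, TKO) and region. Per the submitters' processing notes and the study's methods, the authors trimmed reads with Trim Galore 0.6.5, quantified them with kallisto 0.46 on mm10, summed them to genes with tximport, and used edgeR 3.34.1. The deposited values are estimated counts per gene, given as whole numbers without normalization. For transcripts that share sequence, such estimates divide reads between copies.

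Ratios were computed here from the counts divided by library totals times TMM factors (edgeR 4.0.16, R 4.3.3) from 12999 genes, with exact (Clopper-Pearson) 95% intervals. Reads carry no molecular identifiers, so intervals and the floor of 3 counts cover counting error only. Genes with a mean scaled CPM of at least 1 were tested, and 2-fold calls used a prior count of 2. The departure of the left ventricle from the zones was the interaction in edgeR's quasi-likelihood test, tested on simulated data first, with DESeq2 1.42.0 as an alternative. Gene positions came from GENCODE on GRCm38 (16867 genes found), and promoters from RefSeq. Tables used Python 3.11.15, pandas 2.3.3, numpy 2.4.6, scipy 1.17.1, and matplotlib 3.10.9.

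Gene lists, the comparison, and the genes named were chosen with earlier results of these data known. Genes were named if the study names them, if a list member was at least 2-fold different or a list's extreme, if among the 15 highest or lowest by counting interval (predicted genes left out), if leading the departure test, or if within 5 Mb of *Tigar* and at least 2-fold different. *Fam107a*, *Depp1*, and *Tfrc* come from the departure test, and genes near *Rnaset2b*, the examples of near-zero genes, and other list members were picked after their values were seen. A few genes covered by this rule are left out.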

Additional observations from a re-analysis of the deposited data

Results flagged for a closer look

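In a test of whether the left ventricle's genotype difference departs from that of the 3 zones, 33 genes departed higher and 61 lower (edgeR's quasi-likelihood test, Benjamini-Hochberg adjustment). Without the border zone libraries none was called. Among the genes named from it, *Rnaset2b* departed by 5.20 on the log2 scale, with 25 to 31 counts in the TKO zones and 1231 in TKO-LV. *Per2* departed by -2.61, *Depp1* by -2.89, *Fam107a* by -3.05, and *Ddit4* by -2.19. *Pck1* (-6.38), the fat cell gene *Cidec* (-5.74), and the light chain gene *Igkv1-117* (-5.51) departed lower. *Rab6b*, a neuronal trafficking GTPase, departed by -3.56, with 505 counts in WT-LV and 29 in TKO-LV.

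The other genes named from the test share sequence with a copy, are pseudogenes, or had at most 1 count in 1 left ventricle library. *Rps7*, whose copy is given above, departed by -2.72, and the pseudogene *Gm17131* by 3.42, with 225 counts in WT-LV and 2093 in TKO-LV. *Itsn2* (10.12), *Pnpla6* (8.87), and *Aff3* (6.23) had at most 1 count in WT-LV, and *Itpr1* (-11.39) and *Zfp708* (-9.11) had 0 in TKO-LV. Most of the genes called with all 8 libraries were no longer called without the remote zone, *Zfp708* and *Pnpla6* among them. Fitted values of genes at 0 depend on the prior count and are not fold changes.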

How the results depend on the processing

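No paired analysis was possible because the left ventricle comparison has 1 library a side, and the test of departure already compares the genotypes within each region. Total counts alone, DESeq2 size factors, TMM over the 2 left ventricle libraries, TMM from all genes, leaving mitochondrial DNA out, dividing repeated counts by their common divisor, other prior counts, and other filters were tried, and, chosen after seeing the data, only protein-coding genes or genes above 3 counts. Of 948 single-gene ratios under an alternative, 898 stayed within the counting interval of the reported ratio, and 2 turned below 1 with TMM over the 2 libraries (*CYTB* 0.993, *ND4* 0.995). Genes at least 2-fold higher, lower, or either numbered 710, 1262, and 1972 with no filter and 92, 156, and 248 at a mean of at least 5 CPM. With no filter, median ratios became 0.800 for fructose bisphosphate control, 0 for immunoglobulin genes, 0.0423 for adipocyte genes, and 1.22 for creatine kinase genes (also with at least 10 counts in every library, where the epicardial median turned to 1.37). With TMM over the 2 libraries, medians were 0.981 for mitochondrial DNA, 1.09 for the study's 8 cardiac genes, and 1.13 for cardiomyocyte markers; with TMM from all genes, 1.11 for the cardiac genes, 1.13 for calcium cycling, and 1.16 for cardiomyocyte markers. Genes departing higher and lower from the zones numbered 108 and 178 by DESeq2, 150 and 136 with total counts, 668 and 813 without the infarct zone, 18 and 38 without the remote zone, and 0 and 0 without the border zone; the cause was not tested. Depth limits low genes: at 47 and 48 counts (*Lcn2*) the interval ran from 0.708 to 1.65.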
